A study of Homo sapiens with 12 samples.

Results

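The steroid-converting enzymes described here are 8 genes of the 63568 in the expression table. They were chosen by name from their known function, with earlier results of these data known. Other steroid-converting enzymes form a separate list further below, so the 8 are not a complete set. The 8 are the steroid 5-alpha reductases SRD5A1 and SRD5A3, the 17-beta-hydroxysteroid dehydrogenases HSD17B4, HSD17B8, HSD17B10, HSD17B11 and HSD17B12, and the steroid sulfatase STS. All 8 were found in the table and all 8 passed the filter on low values. RNA-seq was carried out on LNCaP cells, an androgen-dependent prostate cancer line established from a lymph node metastasis, after depletion of BRG1. SMARCA4 encodes BRG1, which is 1 of the alternative ATPases of the SWI/SNF chromatin remodelling complex. Cells received a non-targeting siRNA pool (si-NT) or 1 of a pair of siRNAs that target SMARCA4, called siRNA 2 and siRNA 3 after the column names of the table. They were harvested after 72 h, or after 144 h following a split and a repeat transfection, and ERCC spike-in RNA was added to each sample. Every group is unmodified LNCaP apart from its siRNA, so the data describe a single cell line. There were 2 si-NT libraries and 4 BRG1 depleted libraries (2 per siRNA) at each time point, 12 in all. The labels do not say whether replicates were separate cultures, so the p-values measure only the spread between these libraries, which may be technical.

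Androgens and estrogens are activated and inactivated in their target cells by such enzymes. 5-alpha reductases can turn testosterone into dihydrotestosterone, the strongest natural ligand of the androgen receptor, 17-beta dehydrogenases interconvert weak 17-keto steroids and active 17-hydroxy steroids, and steroid sulfatase frees steroids from their circulating sulfates. Many of these enzymes have a main task outside steroid metabolism, in fatty acid oxidation, fatty acid elongation, glycosylation or mitochondrial RNA processing, and the genes of those pathways are described beside them.

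SMARCA4 itself measured 97.01 and 73.44 TPM (a transcript level scaled by transcript length and to the library's total) in si-NT at 72 h and 21.7, 19.02, 17.48 and 19.14 TPM after depletion. At 144 h it measured 94.5 and 106.59 TPM in si-NT and 15.9, 16.16, 11.42 and 17.44 TPM after depletion. The groups lay apart at both time points, and mean TPM was 77.3% and 84.9% lower. Luminal prostate markers were present in every library (8 of 8, 27.8 to 841.47 TPM). Of 12 markers of other cell types found in the table, COL1A1 alone reached 1 TPM (3.1 to 9.11 TPM) and 2 were at 0 in every library. Their summed level was 8.34 to 9.56 TPM in si-NT and 4.32 to 10.1 TPM in BRG1 depleted libraries at 72 h, and 7.32 to 7.66 TPM and 4.83 to 7.25 TPM at 144 h. The spike-ins took 0.805% to 1.97% of TPM, and 14706 to 15355 genes reached 1 TPM. The read depth behind each value is unknown, since TPM does not keep it.

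At 144 h of BRG1 depletion, 3 of the 8 enzymes changed. All 3 were 17-beta dehydrogenases, a class that makes up 5 of the 8. HSD17B4, the peroxisomal multifunctional enzyme, rose by 73% in mean TPM. HSD17B11, a lipid droplet dehydrogenase, fell by 50.8%, and HSD17B12, the 3-ketoacyl-CoA reductase of fatty acid elongation, fell by 27.3%. The 5-alpha reductases, HSD17B8, HSD17B10 and STS did not pass the test. Genes were tested with limma on log2(TPM + 1) over 16337 genes, with a Benjamini-Hochberg adjusted p under 0.05 as the threshold. At that threshold 13.6% of all genes tested rose and 10.8% fell at 144 h, against 1 and 2 of the 8 enzymes. At 72 h 1.13% of all genes rose and 0.557% fell, against 1 enzyme (HSD17B4) and 0. HSD17B11 alone was lower at 72 h at an unadjusted p under 0.05, which 4.63% of all genes were. None of the 8 reached the log2 fold change of 1.5 that the study's text applied, which 1.1% of all genes passed at 144 h. The study's methods instead give a linear fold change of 1.5 with an adjusted p under 0.01. At 144 h HSD17B4 (fold 1.72) and HSD17B11 (fold 0.53) passed those limits in the limma fit, as did 8.94% of all genes. Since TPM measures bulk RNA, fewer cells of a type and less RNA per cell cannot be told apart, and every value is relative to the other RNA of its library.

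The levels differed widely between the enzymes. Over the 4 si-NT libraries mean TPM was 207.3 ± 10.9 (SD, n = 4) for HSD17B4, 98.6 ± 7.71 for HSD17B10, 50.9 ± 4.16 for SRD5A3 and 37.2 ± 0.53 for HSD17B12. It was 26.8 ± 2.65 for SRD5A1, 11.9 ± 1.14 for HSD17B11, 4.17 ± 0.366 for HSD17B8 and 2.8 ± 0.273 for STS. No neighbours in this order overlapped in the si-NT libraries. The order was the same in 9 of the 12 libraries. SRD5A1 stood above HSD17B12 in siRNA 2 replicate 2 at 72 h and siRNA 3 replicate 2 at 144 h, and HSD17B8 stood above HSD17B11 in siRNA 2 replicate 2 at 144 h.

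**Figure D1:**
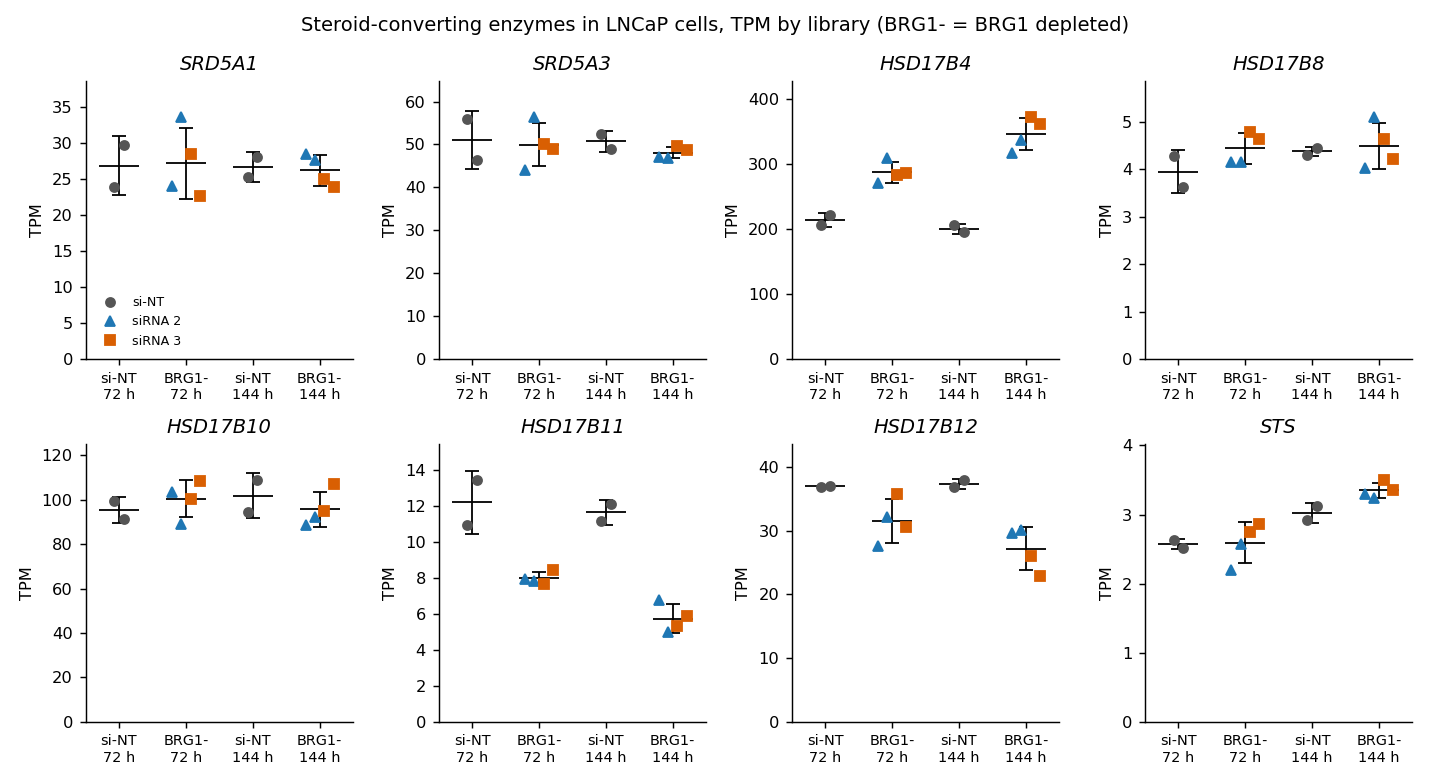
Level of each of the 8 enzymes in TPM (vertical axes from 0) in every library, with circles for si-NT, triangles for siRNA 2 and squares for siRNA 3, and bars for the mean and SD of each group (n = 2 or 4). HSD17B4 after depletion lies above both si-NT libraries at 72 h and 144 h (316.68 to 372.17 TPM against 194.88 and 206.14 at 144 h), and HSD17B11 lies below them (4.96 to 6.79 against 11.15 and 12.12).

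The promoters of the most strongly changed enzyme in each direction, HSD17B4 and HSD17B11, are shown to set their sequences side by side. They come from the RefSeq promoter table, which holds 7 of the 8 enzymes, and were placed on GRCh37 by an exact match. The HSD17B4 stretch is chr5:118787942-118788159 on the plus strand, printed up to the base before the GENCODE gene start. The HSD17B11 stretch is chr4:88312341-88312590 on the minus strand. Both are read 5′ to 3′ toward the gene, and the capitals in the HSD17B11 stretch mark a CCAAT box, while no motif searched lies in the HSD17B4 stretch.
HSD17B4: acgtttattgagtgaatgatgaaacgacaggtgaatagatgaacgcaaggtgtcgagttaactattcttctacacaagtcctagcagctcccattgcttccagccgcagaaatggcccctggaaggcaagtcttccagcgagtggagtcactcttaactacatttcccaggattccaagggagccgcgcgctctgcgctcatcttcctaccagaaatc
HSD17B11: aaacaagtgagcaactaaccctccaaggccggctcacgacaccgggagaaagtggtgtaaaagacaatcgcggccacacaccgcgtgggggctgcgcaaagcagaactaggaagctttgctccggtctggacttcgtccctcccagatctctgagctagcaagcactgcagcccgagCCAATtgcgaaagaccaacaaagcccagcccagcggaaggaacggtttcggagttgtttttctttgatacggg
Both strands of the 250 bases before each RefSeq start were searched for AGAACA (an androgen receptor half-site), GTAAACA (a forkhead motif), GGGCGG (a GC box) and CCAAT. HSD17B11 held a CCAAT box 73 bases before the start and no GC box, whereas HSD17B4 held a GC box 11 bases before the start, beyond the stretch printed, and no CCAAT box. Neither window held AGAACA or GTAAACA. Over all 35116 promoters of the table the shares with a match were 12.4% for AGAACA, 2.98% for GTAAACA, 42.6% for GGGCGG and 32% for CCAAT. The HSD17B4 window held 14 CG dinucleotides and that of HSD17B11 16, against a median of 11 over all promoters. A match is a description of letters, and BRG1 binding was not measured here.

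SRD5A1, which reduces testosterone to dihydrotestosterone, lies at chr5:6633540-6674499 (GRCh37, plus strand). It measured 23.93 and 29.75 TPM in si-NT and 24.03, 33.59, 28.46 and 22.67 TPM after depletion at 72 h, and 25.23 and 28.12 TPM against 28.45, 27.61, 25.02 and 23.91 TPM at 144 h. The groups overlapped at both time points. The log2 fold change was 0.01 at 72 h (95% interval -0.32 to 0.34, adjusted p = 0.985) and -0.02 at 144 h (-0.36 to 0.31, adjusted p = 0.928) by limma, and its sign turned under 3 other scalings at 72 h. Its processed pseudogene SRD5A1P1 reached at most 0.05 TPM. SRD5A3, at chr4:56212380-56239267 on the plus strand, carries the 5-alpha reductase name and also reduces polyprenol to dolichol, the lipid carrier of N-glycosylation. It measured 55.91 and 46.35 TPM in si-NT and 44.14 to 56.33 TPM after depletion at 72 h, and 52.5 and 49.0 TPM against 46.83 to 49.65 TPM at 144 h. Its libraries overlapped as well, with a log2 fold change of -0.03 (-0.27 to 0.20, adjusted p = 0.923) and -0.08 (-0.31 to 0.15, adjusted p = 0.641). These intervals leave room for changes of either sign in both genes.

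HSD17B4 (ENSG00000133835.10, chr5:118788160-118972894, plus strand, 24 exons) encodes the D-bifunctional protein, which joins the hydratase and dehydrogenase steps of peroxisomal beta-oxidation and can also oxidise estradiol to estrone. At 72 h it measured 206.81 and 221.35 TPM in si-NT, 270.86 and 309.74 TPM with siRNA 2 and 282.77 and 286.5 TPM with siRNA 3. At 144 h it measured 206.14 and 194.88 TPM in si-NT, 316.68 and 337.59 TPM with siRNA 2 and 372.17 and 361.08 TPM with siRNA 3. All 4 BRG1 depleted libraries exceeded both si-NT libraries at each time point. Mean TPM went from 214.1 ± 10.3 (n = 2) to 287.5 ± 16.3 (n = 4) at 72 h and from 200.5 ± 7.96 (n = 2) to 346.9 ± 24.8 (n = 4) at 144 h. The log2 fold change was 0.42 ± 0.09 (SE, adjusted p = 0.0365) at 72 h and 0.79 ± 0.09 (adjusted p = 0.000198) at 144 h. The 72 h call was near the threshold, and the number of enzymes called higher at that time was 0 under 5 alternatives and without any 1 of 8 libraries, which were the 6 of 72 h and both si-NT libraries of 144 h. At 144 h the call remained without any single library. It was lost when libraries were scaled to the ERCC spike-ins, where the log2 fold change was 0.38 (adjusted p = 0.431) while the median of all genes moved to -0.31. Relative to that median the value was 0.70, against 0.76 as reported.

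HSD17B11 (ENSG00000198189.6, chr4:88257667-88312340, minus strand, 7 exons) sits on lipid droplets and the endoplasmic reticulum and can oxidise androstanediol to androsterone, a weak androgen. At 72 h it measured 10.94 and 13.43 TPM in si-NT, 7.94 and 7.81 TPM with siRNA 2 and 7.63 and 8.45 TPM with siRNA 3. At 144 h it measured 11.15 and 12.12 TPM in si-NT, 6.79 and 4.96 TPM with siRNA 2 and 5.31 and 5.85 TPM with siRNA 3. At each time point all BRG1 depleted libraries lay below the si-NT libraries. Mean TPM was 12.2 ± 1.76 (n = 2) against 7.96 ± 0.352 (n = 4) at 72 h and 11.6 ± 0.686 (n = 2) against 5.73 ± 0.797 (n = 4) at 144 h. The log2 fold change was -0.55 ± 0.13 (SE, adjusted p = 0.0592) at 72 h and -0.92 ± 0.13 (adjusted p = 0.000726) at 144 h. The 144 h fall passed the threshold under all 11 alternatives and without any of the 12 libraries, with log2 fold changes of -1.27 to -0.86. At 72 h it passed under 2 alternatives, median-of-ratios scaling and si-NT of both time points combined.

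HSD17B12 (ENSG00000149084.7, chr11:43702230-43878167, plus strand) carries out the first reduction in the elongation cycle of very-long-chain fatty acids and can reduce estrone to estradiol. At 72 h it measured 36.86 and 36.99 TPM in si-NT, 27.52 and 32.13 TPM with siRNA 2 and 35.82 and 30.61 TPM with siRNA 3. At 144 h it measured 36.82 and 37.94 TPM in si-NT, 29.58 and 30.09 TPM with siRNA 2 and 26.04 and 22.94 TPM with siRNA 3. The groups lay apart at both time points, though siRNA 3 replicate 1 came close to si-NT at 72 h. Mean TPM was 36.9 ± 0.0919 (n = 2) against 31.5 ± 3.45 (n = 4) at 72 h and 37.4 ± 0.792 (n = 2) against 27.2 ± 3.34 (n = 4) at 144 h. The log2 fold change was -0.23 ± 0.12 (SE, adjusted p = 0.448) at 72 h and -0.45 ± 0.12 (adjusted p = 0.0218) at 144 h. The 144 h call was lost without si-NT replicate 1 or replicate 2 of that time point (adjusted p = 0.101 and 0.152) and under ERCC scaling (-0.84, adjusted p = 0.134).

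HSD17B10 (chrX:53458206-53461317, minus strand) works in mitochondria, in isoleucine breakdown and as a subunit of the RNase P that trims mitochondrial transfer RNAs. It measured 99.61 and 91.19 TPM in si-NT and 89.16 to 108.64 TPM after depletion at 72 h, and 94.57 and 108.9 TPM against 88.4 to 106.97 TPM at 144 h. These groups overlapped, with log2 fold changes of 0.07 (-0.16 to 0.30, adjusted p = 0.826) and -0.09 (-0.32 to 0.14, adjusted p = 0.59). HSD17B8 (chr6:33172432-33174608, plus strand), the dehydrogenase subunit of the ketoacyl reductase of mitochondrial fatty acid synthesis, was low throughout. It measured 4.28 and 3.63 TPM in si-NT and 4.16 to 4.8 TPM after depletion at 72 h, and 4.31 and 4.45 TPM against 4.03 to 5.1 TPM at 144 h. Its log2 fold change was 0.14 (-0.13 to 0.41, adjusted p = 0.68) and 0.03 (-0.24 to 0.30, adjusted p = 0.897). Under ERCC scaling the 72 h sign turned for both genes, and the 144 h sign for HSD17B8.

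STS, which hydrolyses sulfated steroids such as dehydroepiandrosterone sulfate and estrone sulfate, lies at chrX:7065278-7772399 on the plus strand. At 72 h it measured 2.63 and 2.52 TPM in si-NT and 2.2, 2.57, 2.74 and 2.87 TPM after depletion, and the groups overlapped. At 144 h it measured 2.92 and 3.12 TPM in si-NT and 3.3, 3.24, 3.5 and 3.36 TPM after depletion, and the groups lay apart. The log2 fold changes were 0.00 (-0.26 to 0.27, adjusted p = 0.993) and 0.11 (-0.15 to 0.38, adjusted p = 0.534), and the 144 h value was -0.19 under ERCC scaling. In GENCODE release 44 the STS model overlaps PUDP on the opposite strand, which measured 11.02 to 16.76 TPM, and the sources used here do not state whether reads were counted by strand. With STS, 4 of 8 enzymes did not overlap between groups at 144 h, as did 48.6% of all genes. At 72 h the 3 enzymes without overlap were HSD17B4, HSD17B11 and HSD17B12, against 23.3% of all genes. A share of groups without overlap near these backgrounds is not a result about the enzymes.

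**Figure D2:**
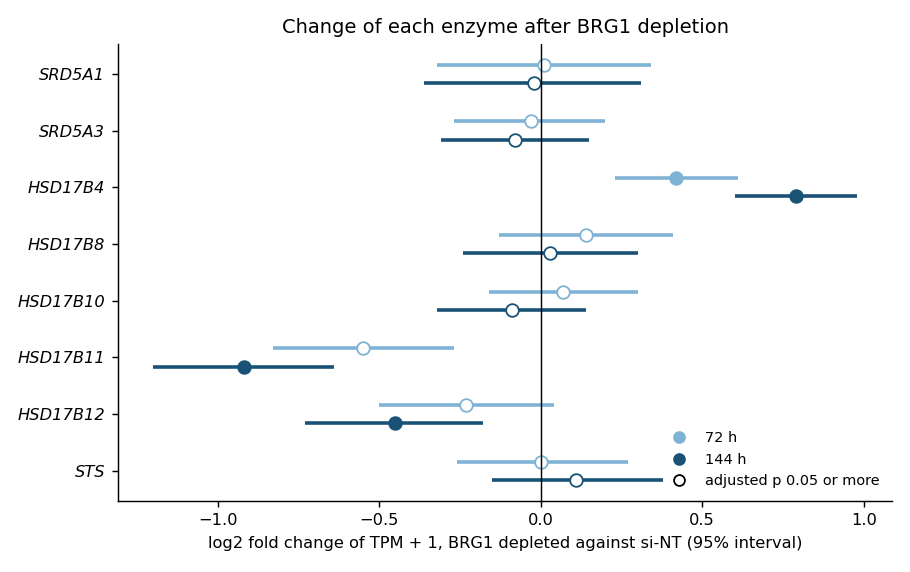
Log2 fold change of TPM + 1 after BRG1 depletion against si-NT (horizontal axis) for each enzyme at 72 h (light) and 144 h (dark), with 95% limma intervals and filled points for an adjusted p under 0.05. HSD17B4 lies to the right at 0.42 and 0.79, HSD17B11 and HSD17B12 lie to the left at -0.92 and -0.45 at 144 h, and the intervals of the other 5 enzymes cross 0.

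The change from 72 h to 144 h was then tested itself. HSD17B4, HSD17B11 and HSD17B12 all had fold changes further from 0 at 144 h. The difference was 0.36 on the log2 scale (adjusted p = 0.317) for HSD17B4 and -0.36 (adjusted p = 0.451) for HSD17B11 in limma's interaction term. None of the 8 passed, as against 0.0184% of all genes, and at an unadjusted p under 0.05 HSD17B4 alone did so, as against 11.9%. In si-NT cells the 144 h and 72 h libraries did not differ for any of the 8 past the threshold, nor for any gene (0% of all genes called). No enzyme had an unadjusted p under 0.05, which 4.11% of all genes had. STS had the largest si-NT difference, 0.17 higher at 144 h (adjusted p = 0.974).

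The siRNAs were next set against si-NT one by one, in 6 groups, and these comparisons share the si-NT libraries. At 144 h siRNA 2 changed 2 enzymes, HSD17B4 (log2 fold change 0.70, adjusted p = 0.00137) and HSD17B11 (-0.89, adjusted p = 0.00511), and 21.3% of all genes. siRNA 3 changed 3 enzymes, HSD17B4 (0.87, adjusted p = 0.000581), HSD17B11 (-0.94, adjusted p = 0.00492) and HSD17B12 (-0.59, adjusted p = 0.00878), and 20.2% of all genes. With siRNA 2 the value for HSD17B12 was -0.32 (adjusted p = 0.0793). At 72 h neither siRNA alone changed any of the 8, against 1.57% of all genes for siRNA 2 and 0.655% for siRNA 3, and HSD17B4 came closest at 0.44 (adjusted p = 0.0501) and 0.41 (adjusted p = 0.0812). At an unadjusted p under 0.05 there were 3 enzymes for siRNA 2 at 72 h (HSD17B4, HSD17B11 and HSD17B12, 16.9% of all genes) and 2 for siRNA 3 (HSD17B4 and HSD17B11, 13% of all genes).

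The siRNAs were compared directly as well. None of the 8 enzymes differed between siRNA 3 and siRNA 2 at 72 h or at 144 h by limma's adjusted p, while 0.141% and 0.331% of all genes did. At an unadjusted p under 0.05 none differed at 72 h (8.33% of all genes). HSD17B12 alone did so at 144 h (13.3% of all genes), where it was lower with siRNA 3 by a log2 difference of -0.28 (adjusted p = 0.348, limma). HSD17B4 differed by 0.16 (adjusted p = 0.459) and HSD17B11 by -0.05 at 144 h.

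**Figure D3:**
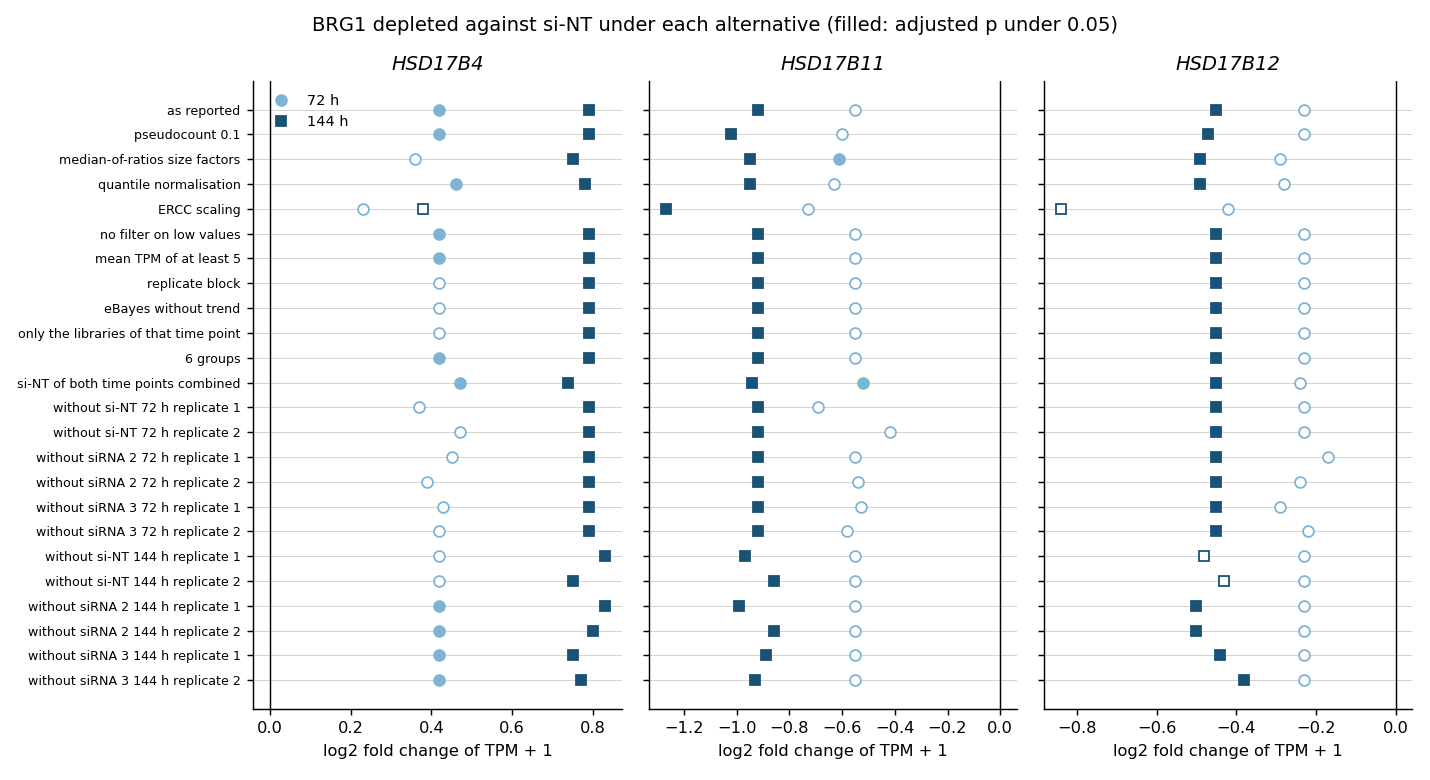
Log2 fold change of TPM + 1 after BRG1 depletion (horizontal axes) for HSD17B4, HSD17B11 and HSD17B12 at 72 h (circles) and 144 h (squares), as reported, under 11 alternatives and without each of the 12 libraries. Filled symbols have an adjusted p under 0.05: HSD17B11 at 144 h is filled in every line, and HSD17B4 at 144 h is open in the line for ERCC scaling (0.38).

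The pathways in which these enzymes work were examined next, from lists of genes taken from textbook knowledge. Of 28 other steroid-converting enzymes listed, 26 were found in the table and 10 were tested, whereas the other 16 stayed at or under 0.89 TPM and 4 of those were at 0 in every library. Values from here on are mean TPM ± SD over 2 si-NT and 4 BRG1 depleted libraries at 144 h, except where 72 h is named. At 144 h 2 of the 10 rose and 3 fell, with a median log2 fold change of -0.21 against 0.03 over all genes. Of those 3 falls, 2 were of genes that passed the filter on low values only through si-NT libraries. SULT2B1, the sulfotransferase that conjugates cholesterol and 3-beta-hydroxysteroids and so acts opposite to STS, rose from 21.5 ± 1.93 to 63.5 ± 8.26 TPM (log2 fold change 1.51, adjusted p = 2.93e-05). This 144 h call passed under all 11 alternatives and without any library. At 72 h SULT2B1 rose from 24.2 ± 0.544 to 39.5 ± 2.48 TPM (0.68, adjusted p = 0.0191), a call lost without either si-NT library of 72 h, under ERCC scaling (0.49, adjusted p = 1) and with only the libraries of 72 h. HSD17B14, a 17-beta dehydrogenase that can oxidise estradiol, rose from 1.44 ± 0.375 to 9.34 ± 2.4 TPM (2.07, adjusted p = 0.0099), a call lost without either si-NT library of 144 h. At 72 h its si-NT libraries were far apart, at 0.64 and 4.34 TPM.

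The falls in that list concerned genes at low level. HSD17B6, which oxidises androstanediol back toward dihydrotestosterone, fell from 3.27 ± 0.651 to 1.09 ± 0.309 TPM at 144 h (-1.03, adjusted p = 0.00565), and this call was lost without si-NT replicate 1 of 144 h. CYP11A1, the side-chain cleavage enzyme that makes pregnenolone from cholesterol, fell at 72 h from 3.03 ± 0.255 to 0.617 ± 0.417 TPM (-1.35, adjusted p = 0.0412) and had a log2 fold change of -0.55 at 144 h (adjusted p = 0.194). Its 72 h call remained in 4 of 10 alternatives and without 3 of the 12 libraries. The other 2 that fell at 144 h were AKR1C2 and AKR1C1, aldo-keto reductases that inactivate dihydrotestosterone and progesterone, named here after their values were seen. They went from 1.35 ± 0.0212 to 0.272 ± 0.0759 TPM (-0.88, adjusted p = 0.00516) and from 1.43 ± 0.424 to 0.342 ± 0.199 TPM (-0.86, adjusted p = 0.0119). Both genes passed the filter on low values through si-NT libraries alone. No BRG1 depleted library exceeded 0.81 TPM for AKR1C2 or 0.61 TPM for AKR1C1, so these falls are descriptions only. The AKR1C genes are near-identical copies, so the split of reads between them is uncertain, and both calls were lost without si-NT replicate 2 of 144 h.

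Of the peroxisomal beta-oxidation genes, the pathway of HSD17B4, 21 of 22 were tested. At 72 h 1 rose and 0 fell (4 and 3 at an unadjusted p under 0.05), and at 144 h 7 rose and 2 fell, with a median log2 fold change of 0.27. SLC27A2, a very-long-chain acyl-CoA synthetase, rose from 27.5 ± 0.29 to 60.2 ± 5.74 TPM (1.10, adjusted p = 0.00011) and was the gene that rose at 72 h as well (0.73, adjusted p = 0.01). Its 72 h call was lost under ERCC scaling, with only the libraries of 72 h and without si-NT replicate 2 of 72 h. CRAT, carnitine acetyltransferase, rose from 13.2 ± 3.01 to 30.2 ± 6.08 TPM (1.13, adjusted p = 0.0144), and ACOX3, an oxidase of branched-chain acyl-CoAs, rose from 8.64 ± 0.467 to 14.2 ± 1.3 TPM (0.66, adjusted p = 0.0117). EHHADH, the L-bifunctional enzyme that parallels HSD17B4, moved the other way, from 5.43 ± 0.255 to 2.58 ± 0.555 TPM (-0.86, adjusted p = 0.023). The other gene that fell was PEX5, the import receptor for peroxisomal proteins, named after its value was seen, from 48.5 ± 1.87 to 33.1 ± 2.92 TPM (-0.54, adjusted p = 0.00677). Under ERCC scaling 0 of the 7 rises passed, nor did PEX5 (-0.93, adjusted p = 0.0742), and SCP2, 1 of the 7, turned sign (-0.04). Leaving out single libraries gave 3 to 8 rises. The fewest came without either si-NT library of 144 h. CRAT, PEX5 and ACOX3 each lost their call without si-NT replicate 2 of 144 h, ACOX3 and EHHADH without replicate 1, and EHHADH without replicate 2 as well, whereas that of SLC27A2 at 144 h remained without any single library.

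Around HSD17B12, 9 of 13 genes of very-long-chain fatty acid elongation were tested and 1 fell at 144 h. This was ELOVL6, the elongase that takes palmitate to stearate, which went from 50.0 ± 11.6 to 20.4 ± 6.18 TPM (-1.28, adjusted p = 0.00389) and lost its call without si-NT replicate 2 of 144 h. None rose (3 at an unadjusted p under 0.05), and the median was 0.12. At 72 h ELOVL6 was at 34.1 ± 5.08 and 32.4 ± 4.2 TPM. Around HSD17B11, 13 of 22 lipid droplet genes were tested, and 3 rose and 0 fell at 144 h (1 fell at an unadjusted p under 0.05), with a median of 0.22. They were RAB18, a small GTPase of the droplet surface (95.2 ± 6.2 to 132.8 ± 7.78 TPM, 0.48, adjusted p = 0.00414), PLIN3, a droplet coat protein (36.4 ± 2.35 to 50.9 ± 7.21 TPM, 0.46, adjusted p = 0.0214) and ABHD5, the co-activator of triglyceride lipase (21.79 and 22.19 TPM to 28.1 ± 1.44 TPM, 0.34, adjusted p = 0.0161). Under ERCC scaling none of the 3 passed, with RAB18 and PLIN3 both at 0.07 and ABHD5 turned to -0.05 (adjusted p = 0.896, 0.919 and 0.938), and PLIN3 also lost its call with only the libraries of 144 h. All 3 lost their call without si-NT replicate 1 of 144 h, and PLIN3 and ABHD5 also without replicate 2.

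The partners of the mitochondrial enzymes HSD17B10 and HSD17B8 had 4 falls and 0 rises at 144 h (1 rise at an unadjusted p under 0.05). Of 11 genes of mitochondrial RNase P and isoleucine breakdown, tested around HSD17B10, 3 fell. TRMT10C, the methyltransferase subunit that binds HSD17B10 in RNase P, went from 59.0 ± 10.1 to 40.6 ± 1.48 TPM (-0.52, adjusted p = 0.0187). DLD, the lipoamide dehydrogenase, went from 143.8 ± 1.49 to 114.0 ± 7.51 TPM (-0.34, adjusted p = 0.0447), and BCAT1, the cytosolic branched-chain transaminase, from 1.53 ± 0.608 to 0.505 ± 0.144 TPM (-0.73, adjusted p = 0.032). TRMT10C lost its call without si-NT replicate 2 of 144 h, and BCAT1 and DLD without either si-NT library of 144 h and in 5 and 7 of the 12 single-library omissions in all. The call of DLD held under 6 of 11 alternatives and that of BCAT1 under 8 of 10. Of 5 genes of mitochondrial fatty acid synthesis, tested around HSD17B8, OXSM, its ketoacyl synthase, fell from 38.1 ± 2.79 to 28.5 ± 1.59 TPM (-0.41, adjusted p = 0.0229), a call lost without either si-NT library of 144 h and without siRNA 2 replicate 1 of 144 h. Under ERCC scaling all 4 of these genes fell short of the threshold (TRMT10C -0.91, DLD -0.74, BCAT1 -0.94 and OXSM -0.80, adjusted p = 0.082, 0.158, 0.0817 and 0.123).

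Of 22 genes of dolichol and lipid-linked oligosaccharide synthesis, tested around SRD5A3, 2 rose at 144 h, and the median was -0.05. DHDDS, the catalytic subunit of the prenyltransferase that makes the dolichol chain, rose from 19.6 ± 0.778 to 24.6 ± 2.27 TPM (0.31, adjusted p = 0.0442), and DPM2, a subunit of dolichol-phosphate mannose synthase, from 55.7 ± 1.13 to 67.4 ± 4.74 TPM (0.27, adjusted p = 0.0413). Both rises passed under 5 of 11 alternatives and turned sign under ERCC scaling (-0.08 and -0.13). In the 12 single-library omissions the call of DHDDS held in 2 and that of DPM2 in 4, and both were lost without either si-NT library of 144 h. Of 9 helper proteins tested, SUMF1 rose, the enzyme that converts the active-site cysteine of STS and other sulfatases. It went from 19.7 ± 0.728 to 25.3 ± 1.08 TPM (0.34, adjusted p = 0.031), a call that held in 8 of 12 single-library omissions, not without either si-NT library or either siRNA 2 library of 144 h, and a sign that turned under ERCC scaling (-0.05). At 72 h none of the 69 tested dolichol, helper, mitochondrial, elongation or lipid droplet genes passed limma's adjusted threshold, and 3 were higher and 4 lower at an unadjusted p under 0.05. In each partner list the numbers that passed stand beside 13.6% of all genes rising and 10.8% falling at 144 h, and no list was tested against other genes.

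**Figure D4:**
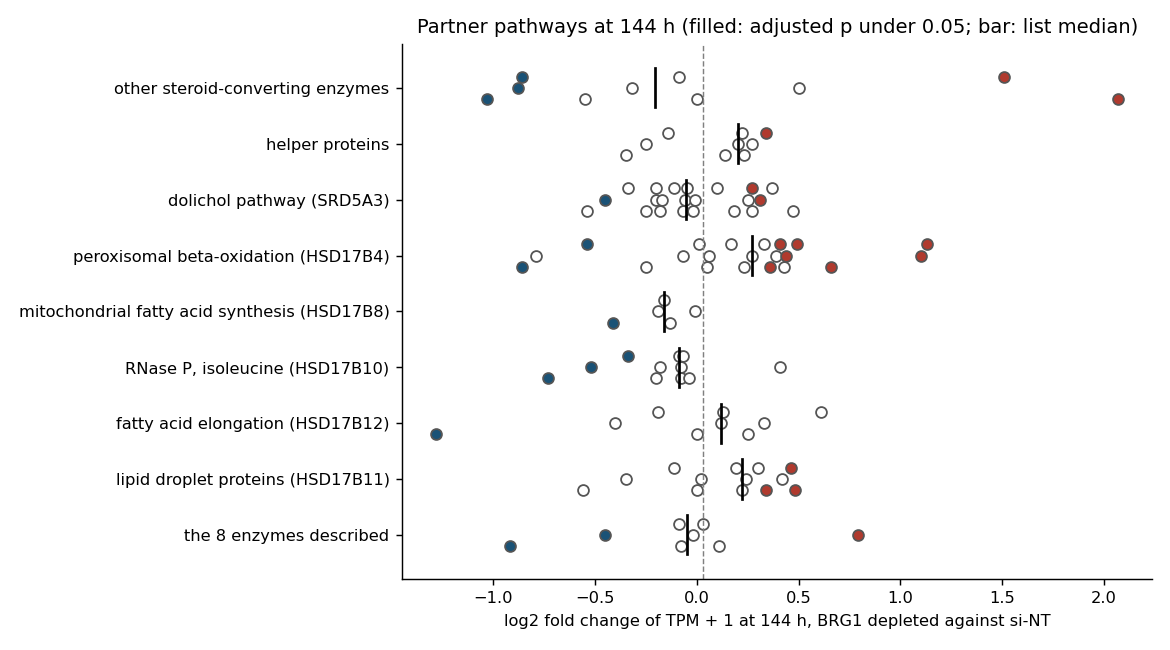
Log2 fold change of TPM + 1 at 144 h (horizontal axis) for each tested gene of 8 partner lists and the 8 enzymes, with filled points for an adjusted p under 0.05, red for rises and blue for falls, a bar at each list's median and a dashed line at the median of all genes (0.03). The peroxisomal list holds 7 rises and 2 falls, with its median at 0.27.

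The genes most alike in pattern were sought by Pearson's correlation of log2(TPM + 1) over the 12 libraries, among 10982 genes with a mean of at least 5 TPM. The libraries share their si-NT and depleted groups, so any gene that changes with depletion correlates, and these values are a description. HSD17B4 was closest to BAIAP2L1 (r = 0.984), an actin-binding adaptor, and GNAI2 (r = 0.982), a G protein alpha subunit, which rose by 1.22 and 0.65 on the log2 scale at 144 h. HSD17B11 was closest to the ribosomal protein genes RPL14 (r = 0.963) and RPL5 (r = 0.956), which had log2 fold changes of -0.40 and -0.44. HSD17B12 was closest to PPM1K (r = 0.971), a mitochondrial phosphatase of branched-chain amino acid breakdown, and SPRED2 (r = 0.959), an inhibitor of Ras signalling, with -0.76 and -0.58. The luminal marker KRT8 was higher at 144 h too (0.56, adjusted p = 0.00109), and the part of such a difference in the enzyme values was not tested.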

How the data were processed

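RNA-seq was measured in 12 LNCaP libraries. Per the labels and the study's methods, the authors trimmed reads with Trim Galore 0.11.2, aligned them to hg19 (GRCh37) with STAR 2.4.0j, counted them on GENCODE genes, normalised with ERCC spike-ins and deposited TPM values. The tool that made TPM is not given in the sources used here. Each column of the deposited TPM table sums to between 999999 and 1000001, so any spike-in scaling is not kept, and depth is unknown. Of 63660 lines, 92 are spike-ins, 55665 of 63568 genes were given a symbol, 0 columns lacked a library and 0 library pairs were identical. A 72 h library carries differing siRNA numbers in its labels; all siRNAs are named by the table's columns.

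The 16337 genes that reached 1 TPM in 2 or more libraries were tested on log2(TPM + 1) with limma 3.58.1 (R 4.3.3, trended eBayes) in 4 groups, or 6 for single siRNAs. Alternatives changed the pseudocount (0.1), scaling, filter, variance trend, grouping, replicate block and libraries. The procedure was also run on simulated data with independent noise and 200 changed genes. Far more genes were called at 144 h in the real data (2222 higher and 1761 lower). The simulation therefore does not bear on the calls reported here. The members and lists were chosen with earlier results of these data known. Named are all members, SMARCA4, at most 4 genes per list with the largest change at 144 h (72 h where called only then), and the 2 genes most alike to each member called at 144 h. Positions come from GENCODE release 44 lifted to GRCh37, not the authors' release. Python 3.11.15, NumPy 2.4.6, pandas 2.3.3 and matplotlib 3.10.9 were used. Some genes of the lists are not reported here. The fold and p limits of the study's methods were added after seeing the data.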

Additional observations from a re-analysis of the deposited data

How the results depend on the processing

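Over all genes the median log2 fold change at 72 h and 144 h was 0.06 and 0.03 as reported, -0.11 and -0.31 under ERCC scaling, 0 and 0 under median-of-ratios scaling and 0.01 and -0.01 under quantile normalisation. Under ERCC scaling the numbers of enzymes called at 144 h were 1 lower (HSD17B11) and 0 higher, and 0 peroxisomal genes were called higher. Relative to that median no enzyme moved by more than 0.07. At 72 h 1 enzyme (HSD17B11) was called lower under median-of-ratios scaling and with si-NT of both time points combined, and 0 were called higher under median-of-ratios scaling, ERCC scaling, the replicate block, no variance trend or only the libraries of that time point. The replicate block put HSD17B4 at an adjusted p of 0.0562 at 72 h. It changed no call of an enzyme at 144 h. Deviations of same-numbered libraries from their group mean correlated by -0.23 to 0.30. With 2 libraries per siRNA at each time point, this cannot tell whether same-numbered libraries were handled together. The reported fit used no pairing.

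Leaving out single libraries gave 0 to 1 enzymes called higher at 72 h, 1 to 2 called lower at 144 h and 3 to 8 peroxisomal genes called higher. Of 26 partner genes called at 144 h, 7 were called under ERCC scaling, 9 without si-NT replicate 1 and 6 without replicate 2 of 144 h.

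Reversed signs concerned uncalled enzymes. SRD5A1 at 72 h was -0.06, -0.04 and -0.18 under median-of-ratios, quantile and ERCC scaling, and -0.14 to 0.16 without single libraries. Under ERCC scaling HSD17B8 and HSD17B10 at 72 h were -0.02 and -0.12, and HSD17B8 and STS at 144 h were -0.30 and -0.19. HSD17B8 at 144 h was -0.04 under quantile normalisation. Without single libraries SRD5A3 at 72 h was -0.17 to 0.10, and at 144 h SRD5A1 was -0.10 to 0.05, HSD17B8 -0.02 to 0.07 and HSD17B10 -0.19 to 0.01. The cause was not tested.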
